A study of Mus musculus with 12 samples.

Results

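A set of 10 genes of purinergic signalling and related receptors was followed through lipopolysaccharide (LPS) stimulation and pre-treatment with JSH-23. JSH-23 is a small molecule known to block the nuclear entry of the NF-κB subunit RelA. The genes were P2ry2, P2ry6, P2ry12, P2ry13, P2ry14, P2rx4, P2rx7, Lpar6, Adora2b and Entpd1, which are 10 of the 55335 genes listed, and all 10 were among the 14357 genes tested. They were taken by symbol, and the set was chosen on measured values of these libraries: P2ry13 for its fall with JSH-23 and Lpar6 for its fall with LPS. These changes are therefore described below with no test. The other tests of P2ry13 and Lpar6 use libraries on which these genes were chosen. Their p values, and the counts that include them, are not independent of that choice.

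RNA-seq had been performed on 12 libraries of dendritic cells grown from mouse bone marrow (BMDC), which came from C57BL/6 mice and were kept for 6 days with the cytokine GM-CSF. Per the study's methods, the floating cells were enriched for CD11c+ cells with magnetic beads before use. All cells carried the CreER transgene with intact Ctcf, and the study's methods state that 4-hydroxytamoxifen was given when the cultures were started. The 4 groups of 3 libraries were untreated cells (WT), cells given 100 ng/ml LPS for 3 h (WTL), cells given 100 µM JSH-23 for 3 h (WT + JSH23) and cells pre-treated with JSH-23 for 3 h before LPS (WTL + JSH23). The labels number the WT and WTL libraries 4 to 6 and the libraries with JSH-23 1 to 3. The study's file list also holds other WT and WTL libraries numbered 1 to 3. Whether the cells with and without JSH-23 came from the same cultures is not stated. An effect of JSH-23 and of any difference between cultures therefore cannot be told apart. Whether the cells without JSH-23 received its solvent is not stated in the sources used here. Nothing in the labels ties the libraries to separate mice, so the p values measure only the spread between these libraries.

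The libraries held between 24664724 and 34837847 expected counts. Replicate 3 of WTL + JSH23 stood apart from the other libraries: its counts differed from those of its 2 replicates with a chi-square per degree of freedom of 8.19 and 9.12, against 2.32 to 4.5 for the 10 other replicate pairs. Dendritic cell markers were detected in every library, with a summed level between 11910 and 15420 CPM (counts scaled to a common library total) over 7 genes. Cd74 and H2-Ab1 made up most of this sum, at mean levels of 8387 and 2060 CPM in WT. Flt3 and Batf3 were far lower, at 6.24 and 18.8 CPM in WT. The summed level of 4 B cell markers stayed at or below 0.553 CPM and that of 5 T and NK cell markers at or below 1.00 CPM.

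ATP, ADP, UTP, UDP and UDP-sugars leave stressed or dying cells and act as danger signals on leukocytes. P2X receptors are ATP-gated cation channels, whereas P2Y receptors are coupled to G proteins and differ in the nucleotide that they bind. Ectonucleotidases such as CD39, the product of Entpd1, degrade ATP and ADP at the cell surface, and the adenosine that finally results acts on adenosine receptors. In dendritic cells, these receptors are known for roles in migration, cytokine release and activation of the inflammasome.

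P2ry12, P2ry13 and P2ry14 lie together on mouse chromosome 3 (build GRCm38, mm10, with genes from GENCODE M21). P2ry14 (59113855 to 59153618), P2ry13 (59207892 to 59210882) and P2ry12 (59216272 to 59262871) are all on the minus strand, inside the span of Med12l on the plus strand (59005825 to 59318682), a gene of the Mediator kinase module. Lpar6, on the plus strand of chromosome 14 (73237895 to 73243294), lies inside Rb1 on the minus strand (73183673 to 73325822). P2ry6 (100937630 to 100974649) and P2ry2 (100996568 to 101012866) are neighbours on the minus strand of chromosome 7, and P2rx7 (122643911 to 122691432) and P2rx4 (122707544 to 122729738) on the plus strand of chromosome 5. Adora2b is on chromosome 11 (62248984 to 62266453) and Entpd1 on chromosome 19 (40612366 to 40741602), both on the plus strand. Exons of P2ry13 and P2ry14 share no base with those of Med12l, exons of P2ry12 share 9 of 2546 bases, and exons of Lpar6 share 408 of 5400 bases with Rb1. Lpar6 and Rb1 each had fractional expected counts in 7 of the 12 libraries, so that some read pairs had been divided. Whether the counting used strand is not stated in the sources used here, so reads from such shared bases cannot be told apart.

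Promoters from RefSeq (GRCm38.p6) were found for 9 of the 10 genes, all but P2ry6. The 250 bases before the start are shown for P2ry13 (chr3:59210883-59211132, minus strand) and Lpar6 (chr14:73237641-73237890, plus strand), which define the set. They are also shown for P2ry14, a neighbour of P2ry13 that was lower with JSH-23 too. Its start is one whose upstream window holds no annotated exon (chr3:59131329-59131578, minus strand). P2ry12, the neighbour with the larger fall with JSH-23, is not shown because its window overlaps an annotated exon. Capitals mark matches, on either strand, to the κB site of NF-κB, to the AP-1 site TGANTCA, to the PU.1 site GAGGAAGT or to the C/EBP site TTGCNNAA.
P2ry13: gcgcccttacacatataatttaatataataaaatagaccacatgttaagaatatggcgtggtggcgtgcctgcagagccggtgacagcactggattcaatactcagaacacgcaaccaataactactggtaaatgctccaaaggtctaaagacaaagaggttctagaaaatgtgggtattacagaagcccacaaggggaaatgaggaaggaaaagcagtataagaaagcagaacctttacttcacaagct
P2ry14: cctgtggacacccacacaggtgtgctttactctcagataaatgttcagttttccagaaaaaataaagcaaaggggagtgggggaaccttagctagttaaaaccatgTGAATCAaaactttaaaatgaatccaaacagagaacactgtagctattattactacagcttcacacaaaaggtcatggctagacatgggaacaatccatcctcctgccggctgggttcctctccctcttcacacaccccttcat
Lpar6: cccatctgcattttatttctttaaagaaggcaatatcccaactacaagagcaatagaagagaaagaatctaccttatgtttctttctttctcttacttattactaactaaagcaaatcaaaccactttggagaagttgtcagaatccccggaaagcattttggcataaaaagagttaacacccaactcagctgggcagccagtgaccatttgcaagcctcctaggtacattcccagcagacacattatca
The windows of P2ry13 and Lpar6 held none of the 4 motifs, and the P2ry14 window held an AP-1 match starting 144 bases before the start. Across the 32851 RefSeq promoters, windows of this length held the κB site in 7.25%, the AP-1 site in 6.75%, the PU.1 site in 2.44% and the C/EBP site in 9.56%. Among the members' other windows, P2ry12 had a κB match, GGAAGTTCCC, starting 51 bases before its start and a C/EBP match, P2ry2 and a further start of P2ry14 had C/EBP matches, and P2rx7 and a further start of P2ry14 had AP-1 matches. The windows of the 2 P2ry2 starts overlap and hold the same C/EBP match, and matches to different motifs did not overlap. A match here is a match of letters only.

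Per transcript length, P2rx4 and P2ry14 led in every group. In TPM (transcript abundance per length, scaled to a common total), the level of P2rx4, an ATP-gated channel, was 232 ± 5.26 (SD, n = 3) in WT, that of P2ry14, the receptor for UDP-glucose and related UDP-sugars, 136 ± 6.37, and that of P2ry6, the UDP receptor, 55.7 ± 1.98. They were followed in WT by P2rx7 (23.3 ± 1.13), Lpar6 (19.7 ± 0.577), Entpd1 (13.2 ± 1.72), P2ry13 (12.8 ± 0.110), Adora2b (5.70 ± 0.660), P2ry2 (2.85 ± 0.174) and P2ry12 (2.63 ± 0.685). The neighbours Entpd1 and P2ry13 overlapped in range, as did P2ry2 and P2ry12.

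In WTL the order of TPM levels was P2ry14 (156 ± 3.14), P2rx4 (131 ± 6.14), P2ry13 (20.1 ± 1.18), Adora2b (15.1 ± 0.882), P2ry6 (11.4 ± 0.363), P2ry2 (9.91 ± 0.0551), Entpd1 (7.10 ± 0.441), P2rx7 (6.88 ± 0.721), P2ry12 (1.83 ± 0.284) and Lpar6 (0.493 ± 0.119), and only Entpd1 and P2rx7 overlapped with the next in order. Thus P2ry13 and Adora2b ranked just below P2ry14 and P2rx4 after LPS, and Lpar6 ranked last. In WT + JSH23 the order was P2rx4 (208.5 ± 8.32), P2ry14 (71.7 ± 2.99), P2ry6 (26.4 ± 2.32), Entpd1 (17.3 ± 0.920), Lpar6 (11.2 ± 0.680), P2rx7 (10.3 ± 0.925), P2ry2 (5.58 ± 0.107), Adora2b (4.96 ± 0.252), P2ry13 (1.30 ± 0.160) and P2ry12 (0.547 ± 0.120), where Lpar6 and P2rx7 overlapped. In WTL + JSH23 it was P2rx4 (148 ± 7.40), P2ry14 (68.3 ± 3.78), Adora2b (18.1 ± 2.25), P2ry2 (11.4 ± 1.51), Entpd1 (10.9 ± 2.09), P2ry6 (5.65 ± 0.672), P2rx7 (4.77 ± 0.569), P2ry13 (2.36 ± 0.571), P2ry12 (0.450 ± 0.0436) and Lpar6 (0.407 ± 0.118). There P2ry2 overlapped with Entpd1, P2ry6 with P2rx7 and P2ry12 with Lpar6.

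**Figure D1:**
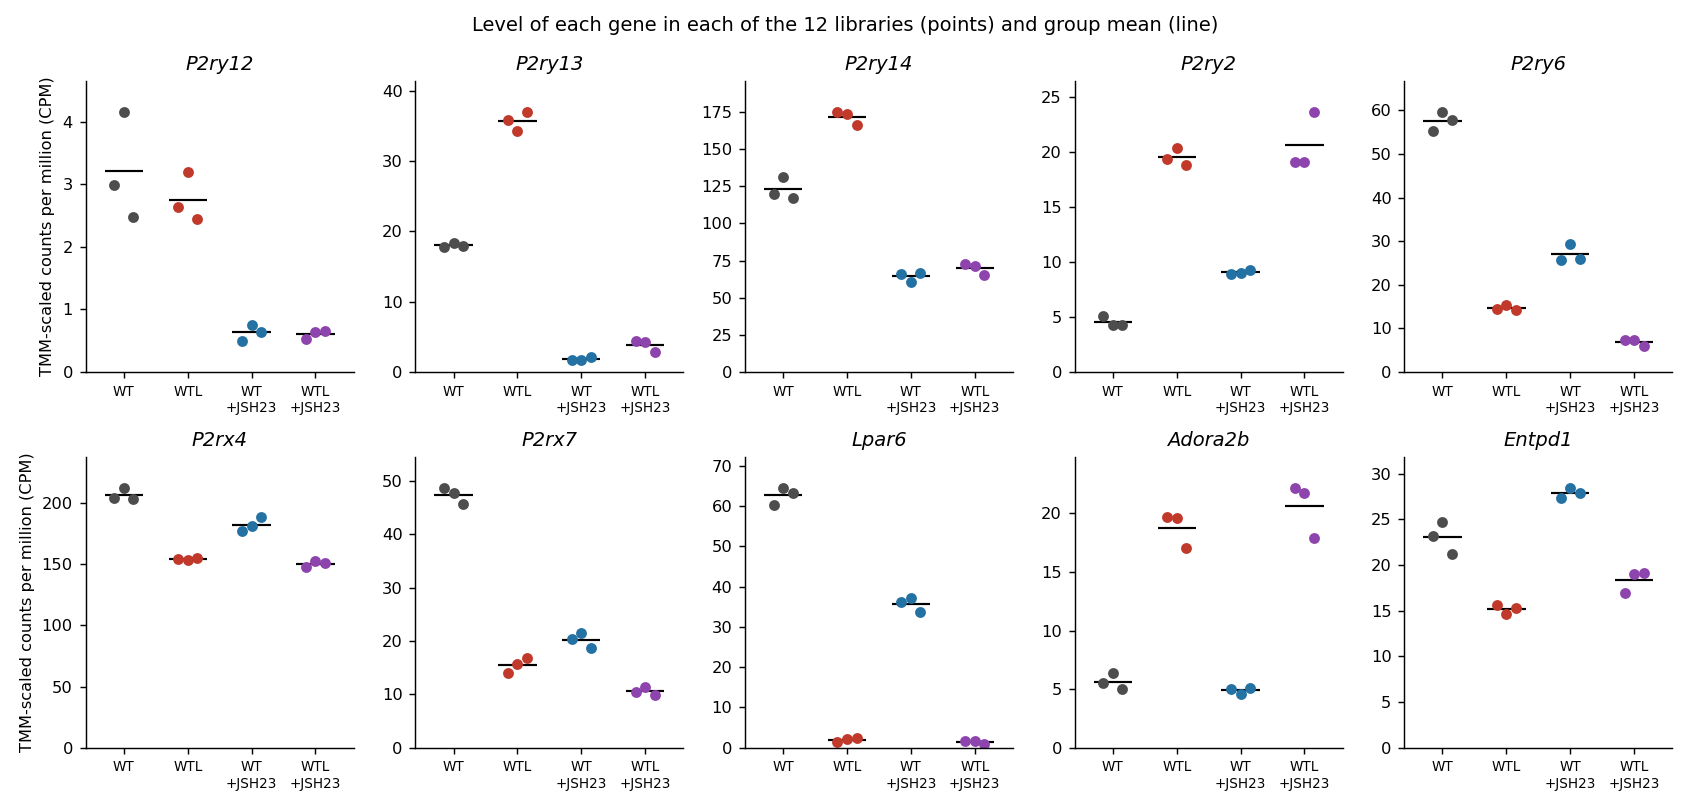
Level of the 10 genes in the 12 libraries, in TMM-scaled CPM on the vertical axis of each panel, by group on the horizontal axis. Points are libraries and lines are means of 3. P2ry12, P2ry13 and P2ry14 sit lower in both JSH-23 groups than in both groups without it, and Lpar6 sits at or below 2.30 CPM in both LPS groups.

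The ADP receptor P2ry13 showed opposite changes with the 2 agents. Its levels, in CPM after TMM scaling (the trimmed mean method of edgeR), were 17.8, 18.3 and 17.9 in WT and 35.8, 34.3 and 37.0 in WTL. They were 1.69, 1.70 and 2.11 in WT + JSH23 and 4.39, 4.30 and 2.81 in WTL + JSH23. Every library with JSH-23 lay below every library without it, and every LPS library lay above the libraries of the matching group without LPS. The JSH-23 change, for which the gene was chosen, was a log2 fold change of -3.30 (SE 0.11) without LPS and -3.20 (SE 0.096) under LPS, a 9.82-fold and 9.20-fold lower level. LPS raised P2ry13 by 0.99 (SE 0.073, adjusted p = 1.39e-10 by the quasi-likelihood test of edgeR, used throughout) without JSH-23 and by 1.08 (SE 0.15, adjusted p = 3.85e-06) after it. The LPS tests of P2ry13 use libraries on which the gene was chosen. Its induced level after JSH-23 still lay below that of untreated cells.

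P2ry12, an ADP receptor best known from platelets and microglia, fell with JSH-23 as well, from a low level. It measured 3.00, 4.15 and 2.48 CPM in WT, 2.63, 3.20 and 2.44 CPM in WTL, 0.492, 0.760 and 0.647 CPM in WT + JSH23 and 0.531, 0.637 and 0.648 CPM in WTL + JSH23. These values rest on 53 to 146 counts per library without JSH-23 and on 15 to 21 with it, and the 2 sets did not overlap. The log2 fold change with JSH-23 was -2.36 (SE 0.23, adjusted p = 3.24e-08) without LPS and -2.20 (SE 0.25, adjusted p = 2.37e-07) under LPS. With LPS, the P2ry12 groups overlapped, and the changes of -0.22 (SE 0.19, adjusted p = 0.317) and, after JSH-23, -0.06 (SE 0.31, adjusted p = 0.894) did not pass the test.

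P2ry14 was lower with JSH-23 by a smaller factor. Its libraries held 120, 131 and 117 CPM in WT, 175, 174 and 166 CPM in WTL, 66.2, 60.4 and 66.9 CPM in WT + JSH23 and 72.4, 71.4 and 65.5 CPM in WTL + JSH23. The log2 fold change with JSH-23 was -0.93 (SE 0.051, adjusted p = 3.79e-12) without LPS and -1.30 (SE 0.051, adjusted p = 1.48e-14) under LPS. LPS raised P2ry14 by 0.48 (SE 0.049, adjusted p = 2.05e-08) in cells without JSH-23. After JSH-23 the LPS groups overlapped, with a change of 0.11 (SE 0.053, adjusted p = 0.0752) that passed only without replicate 3 of WTL + JSH23 (0.16, adjusted p = 0.0174). The difference between these 2 LPS changes was itself tested and was -0.37 (SE 0.072, adjusted p = 0.00119).

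The other genes of this locus gave a mixed picture. Med12l, with only 23.9 to 101 counts per library, measured 2.76 ± 0.0971 CPM in WT, 2.06 ± 0.140 in WTL, 1.46 ± 0.148 in WT + JSH23 and 1.14 ± 0.179 in WTL + JSH23 (n = 3 each). It was lower with JSH-23 by -0.93 (SE 0.17, adjusted p = 9.51e-05) without LPS and by -0.84 (SE 0.19, adjusted p = 0.00086) under LPS. Gpr171, a G-protein coupled receptor on the minus strand between the start of Med12l and P2ry14, showed changes of -0.06 (SE 0.19, adjusted p = 0.821) and 0.10 (SE 0.22, adjusted p = 0.755) that did not pass.

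**Figure D2:**
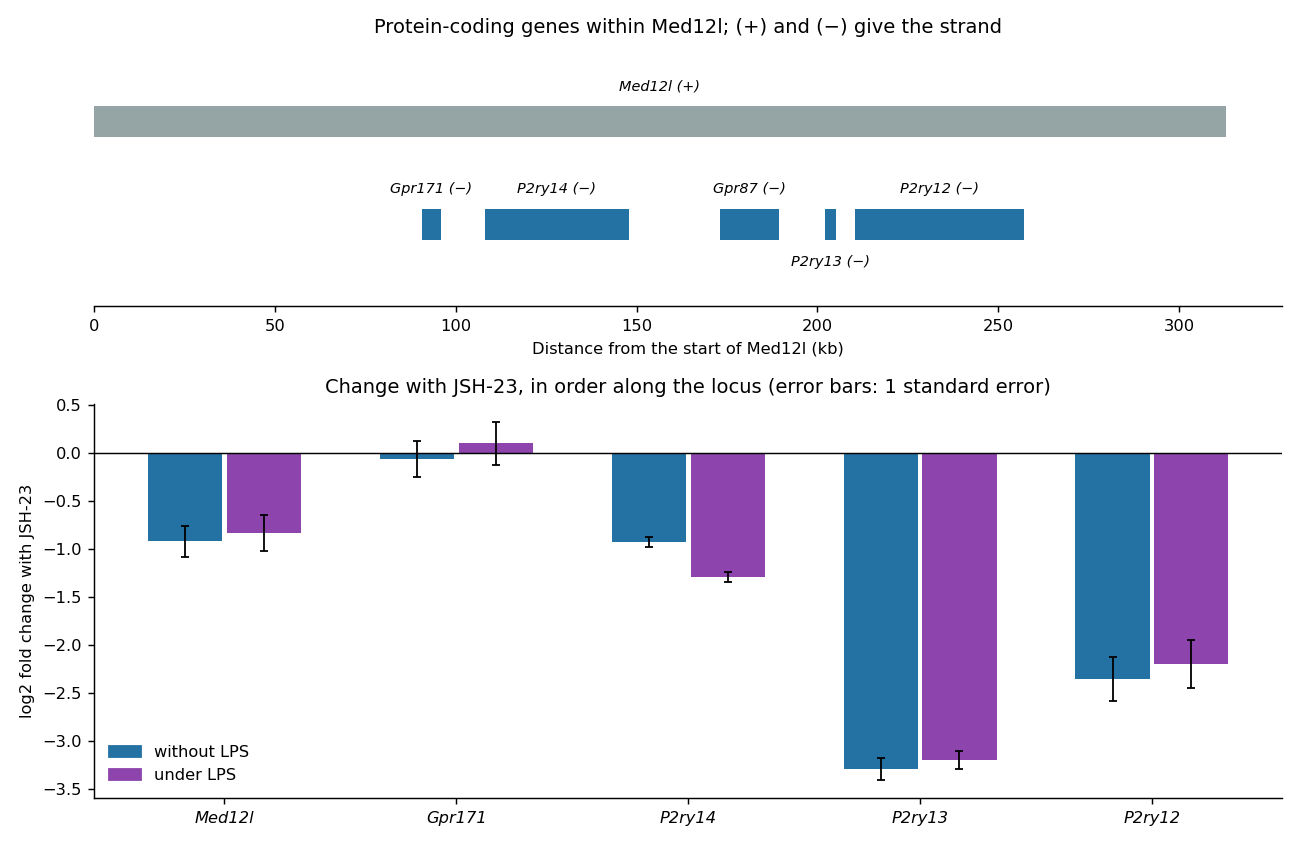
Top, protein-coding genes inside Med12l by distance from its start in kb. Bottom, log2 fold change with JSH-23 (vertical axis) without and under LPS, with bars of 1 standard error, for the genes tested. The values run from -3.30 for P2ry13, the gene chosen on this change, to between -0.06 and 0.10 for Gpr171.

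P2ry2, the receptor for ATP and UTP, rose with LPS in both comparisons and with JSH-23 in the comparison without LPS. It measured 5.05, 4.30 and 4.31 CPM in WT and 19.4, 20.3 and 18.8 CPM in WTL. With JSH-23 the values were 8.91, 9.01 and 9.26 CPM in WT + JSH23 and 19.1, 19.1 and 23.6 CPM in WTL + JSH23. The lowest WT + JSH23 library lay above the highest WT library, whereas both LPS groups overlapped. LPS raised P2ry2 by 2.10 (SE 0.093, adjusted p = 1.91e-14) without JSH-23 and by 1.18 (SE 0.084, adjusted p = 1.08e-10) after it, a difference of -0.92 (SE 0.13, adjusted p = 3.56e-05). The JSH-23 change was 0.99 (SE 0.10, adjusted p = 5.64e-08) without LPS and 0.07 (SE 0.077, adjusted p = 0.487) under LPS, the latter becoming -0.03 without replicate 3 of WTL + JSH23.

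P2ry6 fell with LPS and with JSH-23, each with and without the other. It held 55.2, 59.6 and 57.8 CPM in WT, 14.4, 15.3 and 14.2 CPM in WTL, 25.7, 29.3 and 25.9 CPM in WT + JSH23 and 7.30, 7.28 and 6.01 CPM in WTL + JSH23. None of the 4 groups overlapped. The LPS change was -1.97 (SE 0.064, adjusted p = 9.15e-17) without and -1.96 (SE 0.078, adjusted p = 5.31e-15) after JSH-23, and the JSH-23 change was -1.10 (SE 0.058, adjusted p = 1.98e-12) without and -1.09 (SE 0.086, adjusted p = 7.36e-10) under LPS. The difference between the LPS changes was 0.01 (SE 0.11, adjusted p = 0.981).

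The ATP-gated channel P2rx7, which opens at high ATP and is known to trigger NLRP3 inflammasome activation, was likewise lower with each agent. Its levels were 48.7, 47.7 and 45.7 CPM in WT, 14, 15.6 and 16.8 CPM in WTL, 20.3, 21.5 and 18.6 CPM in WT + JSH23 and 10.4, 11.5 and 9.81 CPM in WTL + JSH23. The 4 groups did not overlap. LPS lowered P2rx7 by -1.62 (SE 0.066, adjusted p = 5.22e-15) without JSH-23 and by -0.93 (SE 0.077, adjusted p = 1.32e-09) after it, and the difference of 0.69 (SE 0.10, adjusted p = 7.57e-05) passed the test. The JSH-23 change was -1.24 (SE 0.063, adjusted p = 1.12e-12) without LPS and -0.54 (SE 0.081, adjusted p = 9.5e-06) under LPS.

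P2rx4, its neighbour on chromosome 5 and the most abundant of the 10 by TPM in WT, moved little. The libraries ranged from 203 to 212 CPM in WT, from 154 to 155 CPM in WTL, from 177 to 188 CPM in WT + JSH23 and from 148 to 152 CPM in WTL + JSH23. LPS lowered it by -0.42 (SE 0.036, adjusted p = 1.52e-09) without and by -0.28 (SE 0.036, adjusted p = 1.52e-06) after JSH-23. The JSH-23 change was -0.18 (SE 0.036, adjusted p = 0.000305) without LPS. Under LPS it was -0.04 (SE 0.037, adjusted p = 0.45), and its sign turned to 0.17 with limma on TPM values.

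Lpar6, a receptor for lysophosphatidic acid that was once classed with the P2Y receptors, had the largest difference with LPS among the 10, for which it was chosen. It measured 60.2, 64.5 and 63.2 CPM in WT against 1.43, 2.17 and 2.30 CPM in WTL. After JSH-23 it measured 36.1, 37.1 and 33.7 CPM in WT + JSH23 against 1.70, 1.79 and 0.994 CPM in WTL + JSH23. Every LPS library therefore lay far below every library without LPS, on 23 to 65 counts each. The log2 fold changes with LPS were -4.99 (SE 0.10) and -4.55 (SE 0.12), or 31.9-fold and 23.5-fold lower levels. JSH-23 alone lowered Lpar6 by -0.81 (SE 0.064, adjusted p = 9.65e-10), in a test that uses libraries on which the gene was chosen. Under LPS the groups overlapped and the JSH-23 change of -0.37 (SE 0.20, adjusted p = 0.14) did not pass, except without replicate 4 of WTL (-0.55, adjusted p = 0.03).

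Rb1, the retinoblastoma gene that contains Lpar6, changed far less. It measured 59.6 ± 2.71 CPM in WT, 39.4 ± 0.703 in WTL, 56.6 ± 2.20 in WT + JSH23 and 40.7 ± 3.63 in WTL + JSH23 (n = 3 each). The Rb1 change with LPS was -0.60 (SE 0.056, adjusted p = 6.04e-09) without and -0.47 (SE 0.057, adjusted p = 3.78e-07) after JSH-23.

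Adora2b, the low-affinity adenosine receptor, rose with LPS with and without JSH-23. It held 5.50, 6.37 and 5.0 CPM in WT, 19.7, 19.6 and 17.1 CPM in WTL, 5.04, 4.56 and 5.14 CPM in WT + JSH23 and 22.2, 21.7 and 17.9 CPM in WTL + JSH23. The LPS change was 1.74 (SE 0.098, adjusted p = 1.28e-12) without and 2.07 (SE 0.10, adjusted p = 1.79e-13) after JSH-23. The groups with and without JSH-23 overlapped, and the JSH-23 changes of -0.20 (SE 0.12, adjusted p = 0.188) without LPS and 0.13 (SE 0.085, adjusted p = 0.209) under LPS did not pass. Without replicate 3 of WTL + JSH23 the latter was 0.22 (adjusted p = 0.0282), and the difference between the LPS changes went from 0.33 (SE 0.14, adjusted p = 0.121) to 0.42 (adjusted p = 0.0255).

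Entpd1 was the only one of the 10 to pass in the higher direction with JSH-23 in both comparisons. It ranged from 21.2 to 24.7 CPM in WT, from 14.6 to 15.6 CPM in WTL, from 27.4 to 28.4 CPM in WT + JSH23 and from 16.9 to 19.1 CPM in WTL + JSH23. The JSH-23 change was 0.27 (SE 0.060, adjusted p = 0.000904) without LPS and 0.28 (SE 0.070, adjusted p = 0.00238) under LPS. LPS lowered Entpd1 by -0.61 (SE 0.066, adjusted p = 5.24e-08) without and by -0.61 (SE 0.064, adjusted p = 5.42e-08) after JSH-23.

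**Figure D3:**
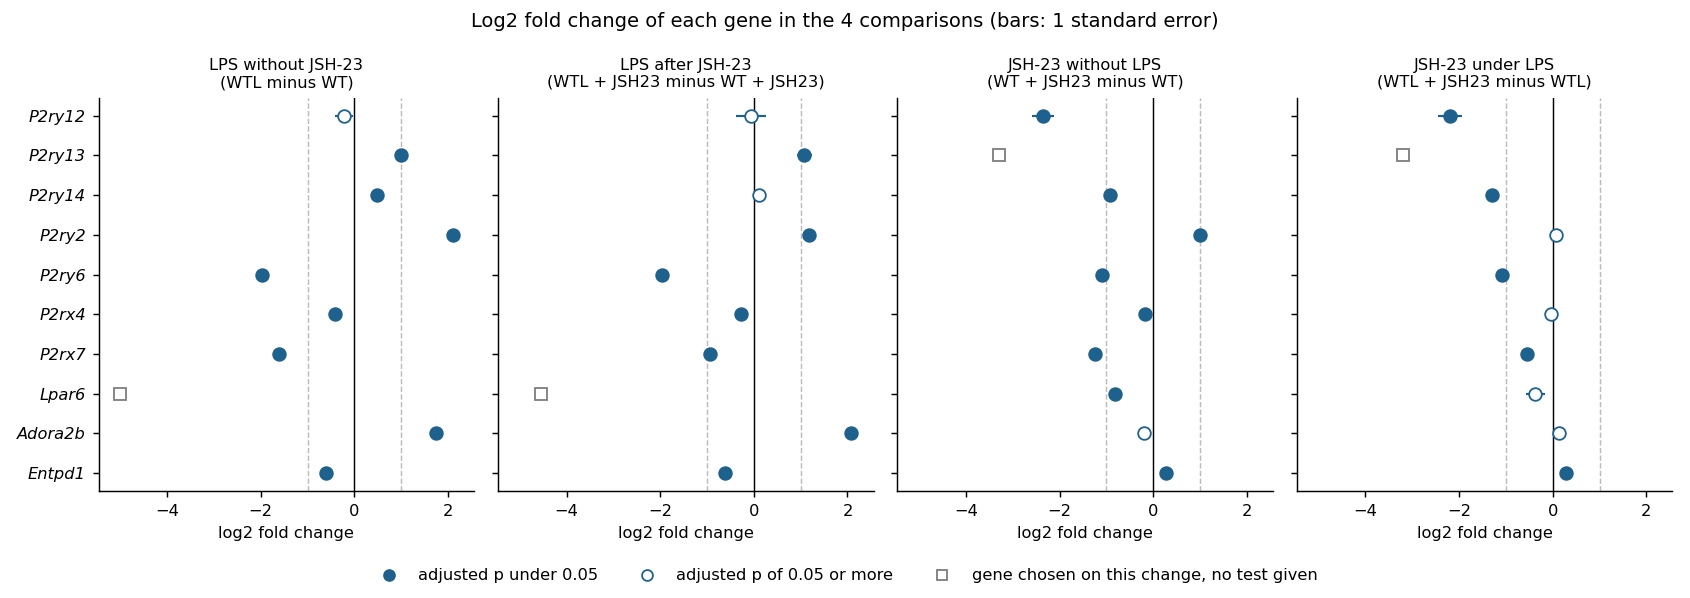
Log2 fold change (horizontal axis) of the 10 genes in the 4 comparisons, with bars of 1 standard error. Filled points passed an adjusted p of 0.05, open points did not, and squares mark the change on which a gene was chosen. LPS changes point both ways, from -4.99 for Lpar6 to 2.10 for P2ry2, whereas with JSH-23 alone 7 of the 10 changes are lower by -0.18 or more with a test passed or, for P2ry13, given as a description.

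As counts, LPS without JSH-23 moved 8 of the 9 genes other than Lpar6 past an adjusted p of 0.05: P2ry2, P2ry13, P2ry14 and Adora2b were higher, P2ry6, P2rx4, P2rx7 and Entpd1 lower. Of all genes tested, 31.0% passed as higher and 34.7% as lower, and the median log2 fold change was -0.22 over the 9 against -0.05 over all genes. Past 2-fold as well were P2ry2 and Adora2b, against 7.36% of all genes, and P2ry6 and P2rx7, against 9.09%. P2ry13 lay just under this fold and passed it without replicate 5 of WTL (1.015) or with DESeq2 (1.02). After JSH-23, LPS raised 3 of the 9 and lowered 4 (8 passed without replicate 3 of WTL + JSH23), with 27.4% and 27.1% of all genes passing in these directions and medians of -0.06 and -0.02. Past 2-fold, P2ry2, P2ry13 and Adora2b were higher (5.85% of all genes) and P2ry6 was lower (4.49%), but P2ry13 was under 2-fold without replicate 1 of WTL + JSH23 (0.97) and at 1.00 without its replicate 2.

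With JSH-23 alone, 6 of the 9 genes other than P2ry13 passed as lower (P2ry6, P2ry12, P2ry14, P2rx4, P2rx7 and Lpar6) and 2 as higher (P2ry2 and Entpd1). Among all genes 22.1% passed as lower and 18.8% as higher, and the median was -0.81 over the 9 against -0.01 over all genes. P2ry6, P2ry12 and P2rx7 were also more than 2-fold lower, against 2.94% of all genes, and none was more than 2-fold higher, against 2.43%, although P2ry2 reached 1.07 without replicate 4 of WT and 1.00 without replicate 1 of WT + JSH23. Under LPS, 4 of the 9 were lower with JSH-23 and 1 was higher, against 24.2% and 24.5% of all genes, with medians of -0.37 and 0.02, and without replicate 3 of WTL + JSH23 the number passing was 6. Here P2ry6, P2ry12 and P2ry14 were more than 2-fold lower (3.25% of all genes) and none was more than 2-fold higher (3.75%). Comparisons with LPS and with JSH-23 share libraries, so these counts are not independent of each other.

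The LPS change differed with JSH-23 for 3 of the 8 genes other than P2ry13 and Lpar6. P2rx7 passed in the positive direction, as did 9.54% of all genes, and P2ry2 and P2ry14 in the negative direction, as did 8.44%. In P2ry2 and P2rx7, LPS moved the gene the way that JSH-23 alone had moved it, and the LPS change after JSH-23 was the smaller. The difference for P2rx4 was 0.14 (SE 0.051, adjusted p = 0.0558). For the 2 chosen genes it was 0.09 (SE 0.17) in P2ry13 and 0.44 (SE 0.22) in Lpar6, given without a test.

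**Figure D4:**
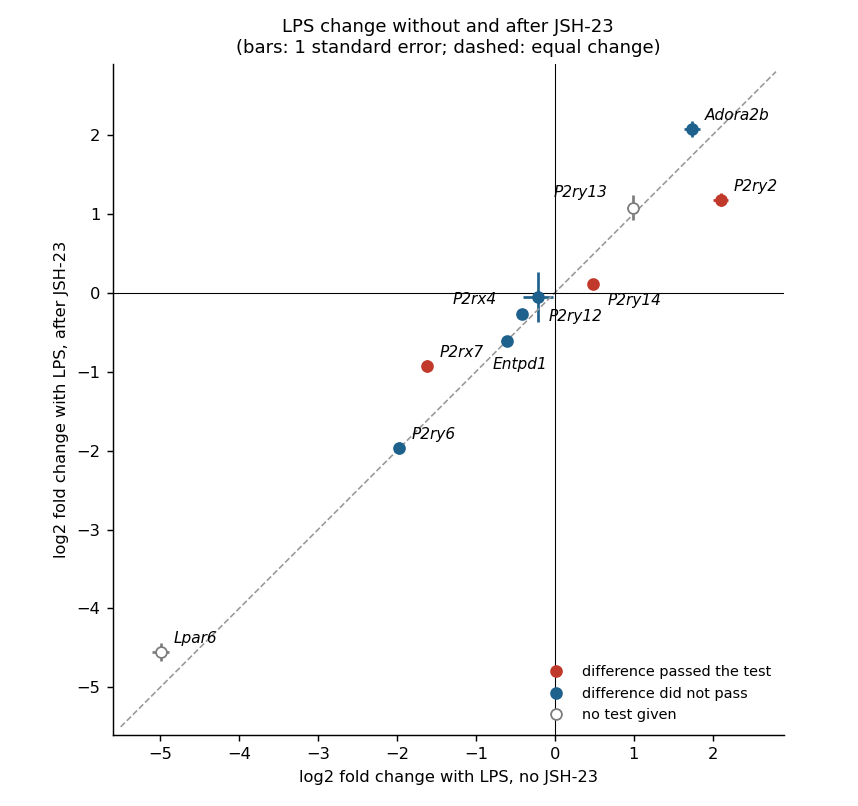
LPS change without JSH-23 (horizontal axis) against LPS change after JSH-23 (vertical axis), both as log2 fold changes with bars of 1 standard error; the dashed line marks equal change. P2ry2 at 2.10 and 1.18, P2rx7 at -1.62 and -0.93 and P2ry14 at 0.48 and 0.11 lie off the line with a test passed.

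In bulk RNA, fewer cells of a type and less RNA per cell cannot be told apart, so markers of the other cells in such cultures were read beside the JSH-23 changes. Of 6 macrophage markers, 6 were lower with JSH-23 without LPS and 5 under LPS. Of all genes tested, 22.1% passed as lower and 18.8% as higher without LPS, and 24.2% and 24.5% did under LPS. Without LPS, Cx3cr1 was lower by -3.14 (SE 0.089), Fcgr1 by -1.31 (SE 0.062), C5ar1 by -1.26 (SE 0.097), Mertk by -0.51 (SE 0.053), Csf1r by -0.43 (SE 0.044) and Adgre1 by -0.37 (SE 0.038). Under LPS, the Csf1r change of -0.09 (SE 0.044, adjusted p = 0.0963) did not pass. The summed level of the list ranged from 1657 to 1763 CPM in WT, from 1209 to 1315 in WTL, from 1142 to 1190 in WT + JSH23 and from 938 to 1021 in WTL + JSH23, and none of the 6 was at 0. Of 5 neutrophil markers tested, none passed with JSH-23 alone and 5 were lower under LPS, with a summed level over 7 genes between 40.9 and 61.3 CPM in all libraries. Of 6 mast cell markers only Kit, which progenitors also express, was tested: it was lower with JSH-23 by -0.90 (SE 0.11, adjusted p = 7.87e-07) without LPS and by -0.44 (SE 0.11, adjusted p = 0.00224) under LPS. Fcer1a, Tpsb2 and Cma1 had at most 3 counts in every library, and the summed mast cell level ranged from 6.77 to 7.28 CPM in WT, from 6.08 to 7.83 in WTL, from 3.64 to 4.05 in WT + JSH23 and from 4.82 to 5.53 in WTL + JSH23. Of the 7 dendritic cell markers, 3 were lower and 2 higher with JSH-23 without LPS. Under LPS, 4 of these 7 were lower and 2 higher, and none passed 2-fold in either comparison. The CD11c+ enrichment before use is meant to remove cells without CD11c, and it does not separate types of CD11c+ cell. The part of other cell types, with or without CD11c, in the changes of P2ry12, P2ry13, P2ry14 and the other members was not tested.

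A further 39 genes of purinergic and lysophosphatidic acid signalling were listed, of which 29 were expressed highly enough to be tested. LPS raised 7 and lowered 14 of these without JSH-23, and raised 8 and lowered 13 after it, with medians of -0.20 and -0.30. Among all genes tested, 31.0% were higher and 34.7% lower with LPS, and 27.4% and 27.1% after JSH-23. JSH-23 raised 7 and lowered 10 without LPS, and raised 10 and lowered 10 under LPS, with medians of -0.06 and 0.11, against 18.8% and 22.1% of all genes without LPS and 24.5% and 24.2% under LPS. The difference between the LPS changes passed for 6 of the 29, 3 in each direction, against 9.54% and 8.44% of all genes.

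Among the receptors of this list, P2rx1, an ATP-gated channel, rose with LPS by 2.65 (SE 0.24, adjusted p = 3.75e-09), from 0.646 ± 0.252 CPM in WT to 4.0 ± 0.413 CPM in WTL, and after JSH-23 by 2.17 (SE 0.27, adjusted p = 6.58e-07). Lpar4, a lysophosphatidic acid receptor, rose with LPS by 3.22 (SE 0.33, adjusted p = 1.87e-08) and after JSH-23 by 2.42 (SE 0.29, adjusted p = 3.51e-07), from 6 to 12 counts in WT to 53 to 82 in WTL. Lpar5, a further receptor of this group, held 39 to 57 counts in WT, 0 to 3 in WTL, 7 to 9 in WT + JSH23 and 0 in all WTL + JSH23 libraries. Its level with LPS after JSH-23 was at least 2.35-fold lower, taking 3 counts per library as the floor, and its JSH-23 change without LPS was -2.46 (SE 0.36, adjusted p = 1.27e-05). Adora3, an adenosine receptor, had 28.2 to 47 counts in WT, 1.83 to 7 in WTL, 8 to 11 in WT + JSH23 and at most 1 in WTL + JSH23, and passed as lower in all 4 comparisons. Adora2a, a further adenosine receptor at a higher level, rose from 82.1 ± 3.80 CPM in WT to 285 ± 3.0 CPM in WTL. Its LPS change was 1.79 (SE 0.043, adjusted p = 6.94e-19) without and 1.71 (SE 0.044, adjusted p = 3.12e-18) after JSH-23. P2ry1, a further ADP receptor, measured 10.2 ± 1.22 CPM in WT, 5.59 ± 0.998 in WTL, 13.9 ± 0.390 in WT + JSH23 and 7.39 ± 0.819 in WTL + JSH23, and was higher with JSH-23 by 0.44 (SE 0.098, adjusted p = 0.000973) without and by 0.38 (SE 0.12, adjusted p = 0.0142) under LPS. P2rx5, the other channel of the list tested, was 2.02-fold lower with JSH-23 under LPS, at 22.1 ± 0.585 against 44.6 ± 0.537 CPM (adjusted p = 4.68e-13). Without LPS it was 2.21-fold lower with JSH-23, at 23.2 ± 0.906 against 51.2 ± 1.67 CPM (adjusted p = 4.77e-14).

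Genes of nucleotide release and adenosine handling also moved with JSH-23. Panx1, a channel that releases ATP, was at 23.7 ± 0.337 CPM in WT, 12.4 ± 0.578 in WTL, 54.8 ± 2.11 in WT + JSH23 and 40.0 ± 2.98 in WTL + JSH23. Its change with JSH-23 was 1.70 (SE 0.064, adjusted p = 7.52e-15) under LPS. Ampd3, an AMP deaminase, rose from 28.2 ± 0.994 CPM in WT to 118 ± 7.64 in WTL, 140 ± 8.30 in WT + JSH23 and 336 ± 40.2 in WTL + JSH23. The JSH-23 change of Ampd3 was 2.31 (SE 0.073, adjusted p = 8.6e-16) without and 1.51 (SE 0.066, adjusted p = 6.78e-14) under LPS. The nucleoside transporter Slc28a2 was lower with JSH-23 by -1.34 (SE 0.12, adjusted p = 1.02e-08) without and by -1.52 (SE 0.13, adjusted p = 3.12e-09) under LPS. Gja1, which encodes connexin 43, rose with LPS by 2.74 (SE 0.25, adjusted p = 3.26e-09) without JSH-23, by 1.98 (SE 0.20, adjusted p = 3.95e-08) after it, and with JSH-23 alone by 1.36 (SE 0.28, adjusted p = 0.000513), from 14 to 18 counts in WT.

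**Figure D5:**
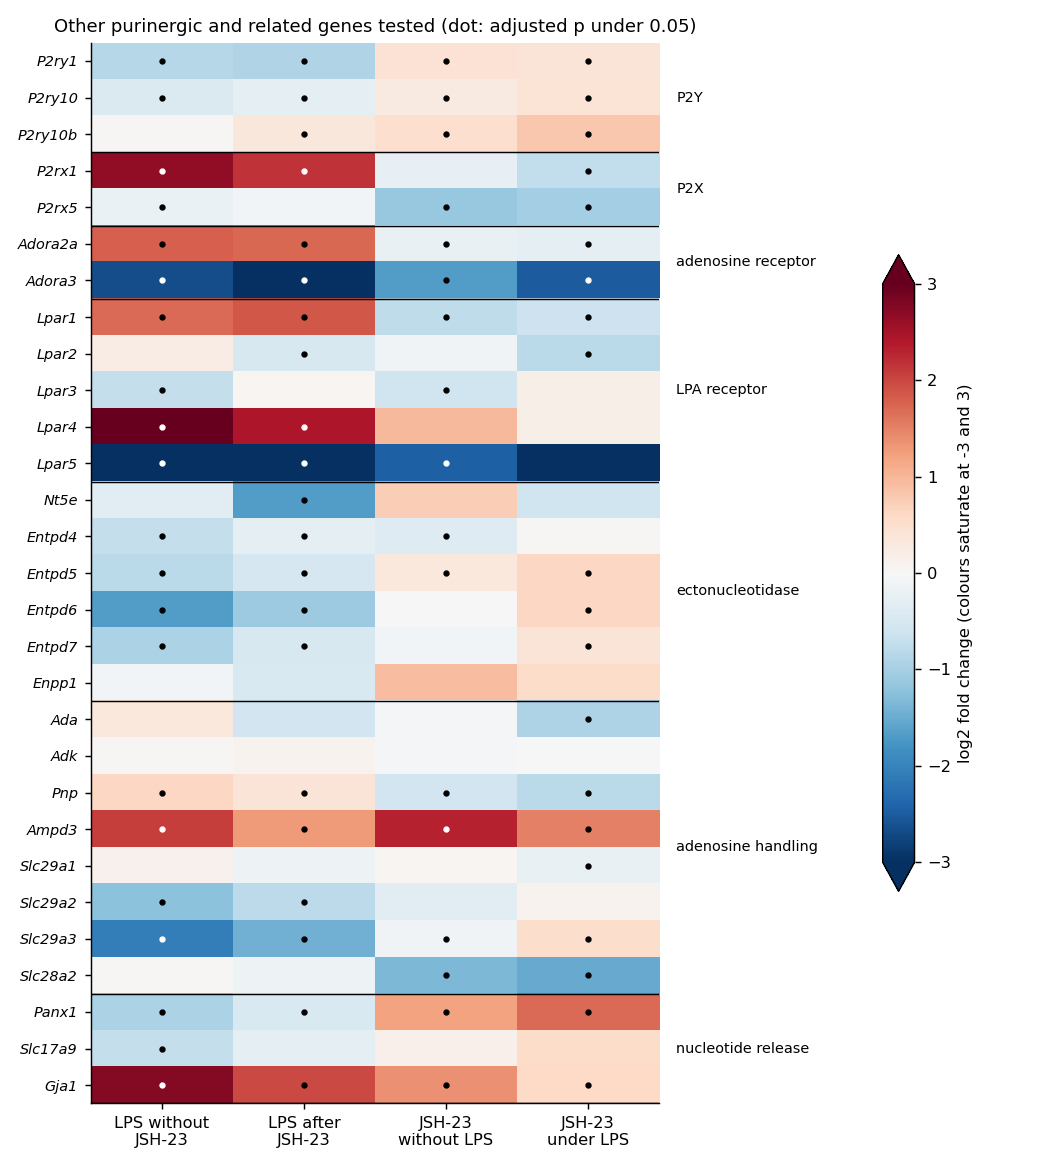
Log2 fold change (colour) of the 29 other purinergic and related genes tested, in rows by role, in the 4 comparisons (columns). Dots mark an adjusted p under 0.05, and fitted values of Lpar5 and Adora3 beyond -3 rest on groups with 3 counts or fewer in most libraries. P2rx1, Lpar4 and Gja1 rise most with LPS alone. The largest rises with JSH-23 are those of Ampd3 and Gja1 without LPS and of Panx1 and Ampd3 under LPS.

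The genes whose log2 CPM followed that of the 2 chosen genes most closely were sought over the 12 libraries among 8183 protein-coding genes with a group mean of at least 10 CPM. The libraries fall into the same 4 groups, so these correlations mostly describe the relative spacing of the group levels on the log2 scale. For P2ry13 they were Gbp7 (Pearson r = 0.995), Glrx (r = 0.995) and Axl (r = 0.994), whose changes were smaller: Gbp7 measured 265 ± 10.5 CPM in WT, 315 ± 6.40 in WTL, 98.7 ± 0.148 in WT + JSH23 and 132.5 ± 7.07 in WTL + JSH23. For Lpar6 they were Shtn1 (r = 0.994), Il6ra (r = 0.994) and Tnfaip8l2 (r = 0.994). Il6ra, which encodes the IL-6 receptor, measured 44.0 ± 2.73 CPM in WT, 4.50 ± 0.230 in WTL, 26.1 ± 2.02 in WT + JSH23 and 3.25 ± 0.398 in WTL + JSH23.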

How the data were processed

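RNA-seq libraries of 4 groups of 3 were analysed. Per the labels and the study's methods, the authors trimmed reads with Trim Galore, aligned them to mm10 with STAR (the labels give version 2.6.0c) and quantified genes with RSEM over GENCODE. These sources differ on the RNA selection kit, which was not settled here. The authors deposited expected counts, RSEM's estimates of read pairs for each gene. The deposited TPM values were scaled by the authors for effective length and library total. Neither had been filtered or normalized between libraries.

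The members, the gene lists and the tests were chosen with earlier results of these data known. Expected counts were rounded. filterByExpr of edgeR 4.0.16 (R 4.3.3) kept 14357 genes, which held 99.94% to 99.95% of the counts. Libraries were scaled by TMM (factors 0.859 to 1.12), and a quasi-likelihood F-test was fitted to all 12 libraries with a mean per group (8 residual degrees of freedom). P values were adjusted over all genes tested by the Benjamini-Hochberg method. A gene passed at an adjusted p under 0.05, and changes above 2-fold (1 on the log2 scale) were counted apart. The script was tested on simulated data. Symbols came from GENCODE M21 by identifier without version (55154 of 55335 matched).

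Besides the members, the genes named were those overlapping a member, the listed purinergic genes past both thresholds (up to 5 per comparison, by size of change), and the 3 genes most like P2ry13 and Lpar6. Gpr171, P2ry1 and Adora2a were named after their values were seen. A macrophage marker listed at the design stage is not reported here, for a reason unrelated to its values. Alternatives were the DESeq2 1.42.0 Wald test, its size factors in edgeR, no filter, a mean of at least 1 CPM, limma 3.58.1 on log2(TPM + 1), a replicate block, and leaving out each library. DESeq2 and edgeR used the same rounded counts. Promoters were from RefSeq (GRCm38.p6).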

Additional observations from a re-analysis of the deposited data

Results flagged for a closer look

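The LPS change differed with JSH-23, by a test of the difference itself, for 3 members. For P2ry2 the LPS change after JSH-23 was lower by -0.92 (SE 0.13, adjusted p = 3.56e-05, edgeR) on the log2 scale than without it, for P2ry14 by -0.37 (SE 0.072, adjusted p = 0.00119), and for P2rx7 it was less negative by 0.69 (SE 0.10, adjusted p = 7.57e-05). In P2ry2 and P2rx7 the LPS change passed both with and without JSH-23. In P2ry14, with all 12 libraries in the fit, it passed only without JSH-23.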

How the results depend on the processing

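Every call of a member that passed was kept, with its direction, under the alternatives run. With limma on log2(TPM + 1), a unit that shifted the median of all genes by -0.26 with LPS, by -0.16 with LPS after JSH-23 and by 0.11 for the difference between them, the counts past 2-fold were 1345 (2361 with edgeR) with LPS, 613 (1484) with LPS after JSH-23, 404 (1005) with JSH-23 under LPS and 318 (771) with JSH-23 alone. The share of higher genes among those passing went from 47.2% to 19.7%, from 50.3% to 24.9% and from 50.3% to 68.3% in the first 3 of these, and from 53.1% to 79.5% for the difference, which the DESeq2 Wald test put at 41.0%. In this unit the fitted change of P2ry14 with LPS after JSH-23 turned to -0.069, that of P2rx4 with JSH-23 under LPS to 0.17 (adjusted p = 0.00977) and the difference for P2ry13 to -0.080, while P2ry12 with LPS passed at -0.35 (adjusted p = 0.0265). The cause was not tested. Past the test but under 2-fold in this unit were P2ry2 (0.91) and P2ry13 (0.53) with LPS after JSH-23, and P2ry6 (-0.91) and P2ry12 (-0.96) with JSH-23 under LPS. The difference for P2ry6 became -0.0197 with the DESeq2 Wald test and -0.0186 with its size factors, and that for Entpd1 -0.0203 and -0.0198. The difference for P2rx4 passed with a mean of at least 1 CPM (0.15, adjusted p = 0.0353), on TPM (0.32, adjusted p = 0.00966) and without replicate 3 of WT + JSH23 (0.17, adjusted p = 0.0423).

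Leaving out each library gave 8822 to 9140 genes passing with LPS, 7183 to 7495 with LPS after JSH-23, 6191 to 6594 with JSH-23 under LPS, 5052 to 5491 with JSH-23 alone and 1880 to 2838 for the difference. Values near 0 changed sign in some of these: P2ry12 ranged from -0.37 to 0.015 with LPS and from -0.22 to 0.088 with LPS after JSH-23, P2ry2 from -0.034 to 0.13 with JSH-23 under LPS, and the difference from -0.040 to 0.087 for P2ry6, from -0.073 to 0.31 for P2ry12, from -0.018 to 0.26 for P2ry13 and from -0.049 to 0.065 for Entpd1.

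Samples with the same replicate number deviated together only weakly, with a positive r in all 6 pairs (0.0142 to 0.0614, none above 0.1). Pairs with different numbers ran from -0.0564 to 0.0355. Not every sample correlated best with its own number: WT + JSH23 replicate 1 correlated best with WTL + JSH23 replicate 2 (0.0355). The main fit had no block, so a weak pairing by number was left out of it. With the replicate number as a block, 9539 genes passed with LPS, 7960 with LPS after JSH-23 and 2968 for the difference, and P2rx4 was the only member whose call changed (difference 0.15, adjusted p = 0.042). The JSH-23 comparisons share no numbers, so no block could be fitted to them. Depth limited P2ry12 most, with 15 to 21 counts per library after JSH-23.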
